A study of Mus musculus with 9 samples.

Results

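The ephrin, semaphorin, Slit and netrin guidance genes and their receptors were followed through 117 differentially accessible sites, out of 19165 such sites listed by the authors. A site was given to a guidance gene when that gene was the protein-coding gene whose body lay nearest to the site's centre, within 100 kb. Of the 46 genes (24 receptors and 22 ligands), 34 had at least 1 listed site (19 receptors and 15 ligands).

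The data are ATAC-seq, in which the Tn5 transposase cuts open DNA, from E14tg2a embryonic stem cells of 129SV background. Every library, controls included, came from cells with a stable cRAF-ErT2 cassette. It encodes a RAF kinase fused to an estrogen receptor part that responds to 4-hydroxytamoxifen (4OHT), which thereby switches on ERK signalling. Cells had been kept in serum, LIF and 2 µM of the GSK3 inhibitor Chir99021, and for the last 24 h in serum, LIF and 250 nM of the FGF receptor inhibitor PD173074. The 9 libraries fall into 3 groups of 3: no 4OHT (0 h), 1 h of 250 nM 4OHT, and 2 h of the same dose. With neither a vehicle control nor cells lacking the cassette among them, ERK activation and exposure to 4OHT itself cannot be told apart. The labels say neither whether the cassette line is 1 clone nor whether libraries of a group come from separate cultures.

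The values are the authors' mean levels over the control libraries and over the 4OHT libraries, as log2 normalized reads. The overall mean in the table equals a mean weighted 3 to 6 to within 0.00986 log2 units, so the 4OHT level was taken to pool 1 h and 2 h. Values per library were not used here, and the depth per library is unknown. The error of a single site therefore rests on the authors' false discovery rate (FDR), which reflects only the spread between libraries that may be technical repeats. The largest FDR in the table was 0.01, so it lists only sites up to that value. A gene without a listed site may have had no accessible site, or sites that did not pass. The labelled cell type could not be checked against marker genes, because levels of unchanged sites are not in the table. In bulk chromatin, a larger share of cells open at a site and more open DNA per cell cannot be told apart.

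Guidance receptors and their ligands steer cell movement, adhesion and axon growth. Eph receptors are receptor tyrosine kinases that bind ephrins on neighbouring cells, and ephrins can also signal back into the cell that carries them. Semaphorins act through plexins, the secreted class 3 members mostly with neuropilins as co-receptors. Slits bind Robo receptors, and netrin binds Dcc and the Unc5 receptors. In pluripotent cells and in the early embryo these systems sort cells and set boundaries between tissues, and Eph receptors are known to feed into RAS and ERK signalling.

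Accessibility of the guidance genes went both ways after 4OHT, with more sites lower than higher. Of the 117 sites, 49 were higher (41.9%, exact Clopper-Pearson 95% interval 32.8 to 51.4%) and 68 were lower. Among all 16454 listed sites within 100 kb of a protein-coding gene, 54.6% were higher and 45.4% were lower. Intervals treat sites as independent and cover counting error only. Sites of the same gene share a locus, and how far the guidance genes differ from other genes was not tested. The median log2 change was 1.32 at the guidance sites that rose and -0.92 at those that fell, against 1.43 and -0.93 for all sites within 100 kb. The balance depended on the size of change. With log2 changes of at least 1, 34 guidance sites were higher and 29 lower. Among all sites within 100 kb, 6861 had such gains and 3057 such losses (41.7% and 18.6% of these sites). The balance was even, at 44 of 88 sites, when a site was given to the nearest gene end in place of the nearest gene body. The share over all sites was not counted under that rule, so this value has no background beside it.

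A listed site was found at 73.9% of the guidance genes, against 36.1% of all protein-coding genes. The guidance genes are long, with a median of 149 kb against 17.1 kb. Among genes over 100 kb, 24 of 28 guidance genes had a site, against 80.0% of all such genes. Among shorter ones the numbers were 10 of 18 and 30.7%. Of the 34 genes with a site, 9 held gains alone, 8 held losses alone and 17 held both. With 3 or more sites, 13 of 17 guidance genes held both, as did 67.8% of all such genes.

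**Figure D1:**
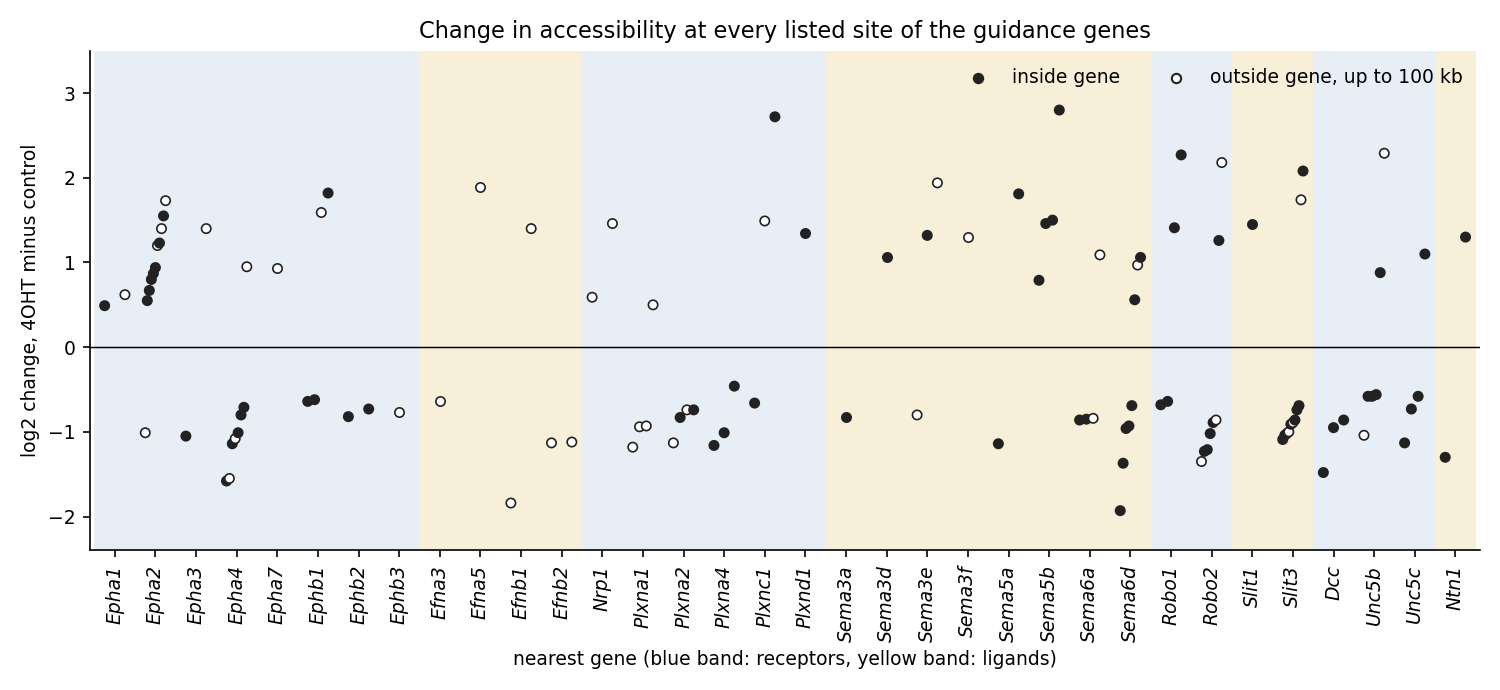
Log2 change (4OHT minus control) at each of the 117 listed sites, by nearest gene, grouped by family. Filled points lie inside the gene and open points outside it. Changes run from -1.93 at Sema6d to 2.80 at Sema5b, and the points of Epha2 sit above 0 except for 1.

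Epha2 held the most higher sites of any of the 46 genes. Nrp2, counted below in a list of further receptors, held more, at 25. Epha2 encodes an A-class Eph receptor that is present in pluripotent cells and is known in cancer cells as a target of RAS and ERK signalling. Of its 11 listed sites, 10 were higher and 1 was lower, and the 10 were 20.4% of all higher guidance sites. The median change of the higher sites was 1.07 on the log2 scale, with a range of 0.55 to 1.73. By number of higher sites Epha2 ranked 13th among 7913 genes with a site, in a tie of 8 genes, though its body spans only 28.2 kb.

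The higher Epha2 sites ran from 5141 bp to 44133 bp beyond the gene's start in the direction of transcription, over 39.0 kb. The first 4 lay close together in the front part of the gene. The site at 5141 bp went from 7.67 to 8.22 in log2 normalized reads (authors' FDR 0.00876), that at 5667 bp from 6.74 to 7.68 (0.000719), that at 6604 bp from 6.59 to 7.46 (0.00205) and that at 7277 bp from 7.19 to 7.99 (0.000327). These 4 gains lay between 0.55 and 0.94, the weaker end of the gene's range. Further into the gene, the site at 16204 bp went from 5.0 to 6.55 (authors' FDR 1.33e-06) and that at 21347 bp from 8.84 to 9.51 (0.00761). Between them lay the site with the smallest FDR of the locus, chr4:141318913-141319368 (mm10), which went from 7.17 to 8.40, a 2.35-fold gain (authors' FDR 3.35e-10).

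Past the Epha2 end, the signal rose as well. A broad site centred 808 bp beyond the gene, chr4:141329668-141330715, went from 8.75 to 9.95 (log2 change 1.20, authors' FDR 4.56e-08) and reached the highest level of the locus. The next site, chr4:141331203-141331637, went from 6.07 to 7.80, the gene's strongest gain at 3.32-fold (authors' FDR 1.17e-09). The farthest one, 15970 bp beyond the gene, went from 6.16 to 7.56 (authors' FDR 0.00232). Among the sites assigned to Epha2, the lower one was the only one on the upstream side, 12815 bp before the gene, at chr4:141288282-141288530. It went from 8.39 to 7.38 (log2 change -1.01, authors' FDR 0.000501). Within 200 kb on either side, the other 3 listed sites, nearest Szrd1, Cplane2 and Zbtb17, were lower, at -0.74, -0.98 and -0.86.

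**Figure D2:**
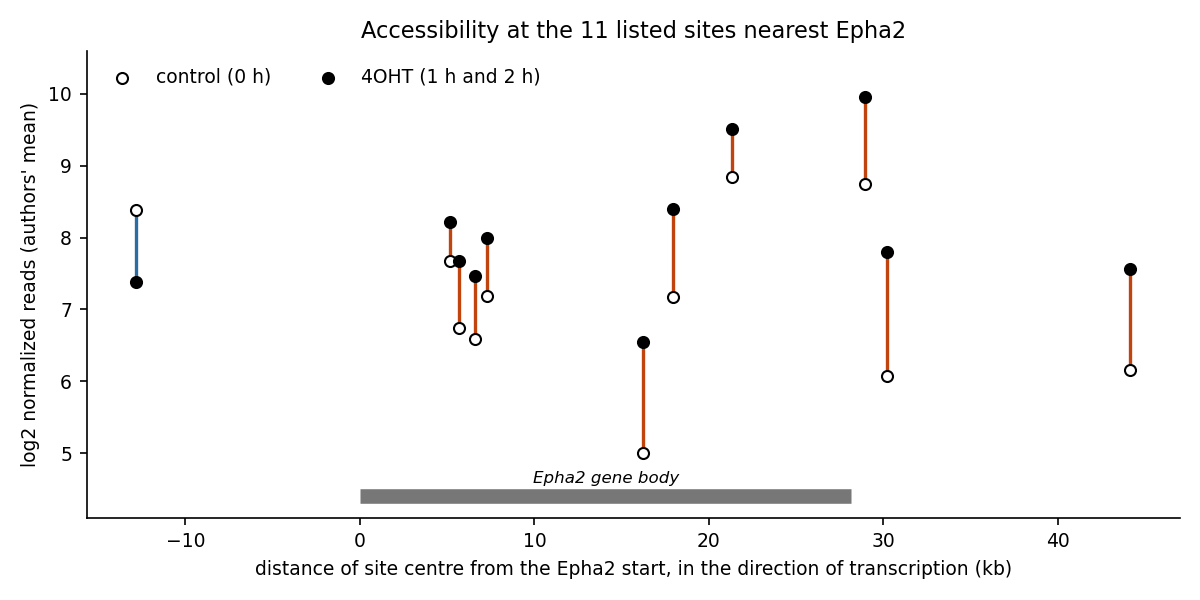
Authors' mean level in log2 normalized reads at the 11 listed sites nearest Epha2, in control (open) and 4OHT libraries (filled), against the distance of the site from the gene's start in kb. Red lines mark gains and the blue line the loss. All sites downstream of the start rose, and the site 12815 bp upstream of it fell.

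Epha4 showed the reverse pattern. It encodes an Eph receptor that binds both ephrin classes and is best known from axon guidance and hindbrain segmentation. Of its 8 sites, 7 were lower and 1 higher. The 5 sites inside the gene were all lower, by -0.71 to -1.58, and all lay in the part of the gene nearer its start, between 18164 and 58150 bp from it. The site with the smallest p, chr1:77475921-77476279, went from 7.31 to 5.73, a 2.99-fold loss (authors' FDR 0.000121). A narrow site 3798 bp upstream of the gene, chr1:77518823-77518987, went from 6.84 to 5.29 (log2 change -1.55, authors' FDR 0.00287), and 1 at 31819 bp from 6.39 to 5.31. Farther upstream, at 70540 bp, the direction turned: a site there went from 8.20 to 9.15 (authors' FDR 0.00281).

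The other Eph receptor genes had few sites. Epha1 had 2, both higher. One of them, chr6:42371847-42373543, covered the start of the gene and went from 9.33 to 9.82, a small gain of 1.40-fold at a highly accessible site (authors' FDR 0.0034). The other went from 9.01 to 9.63. Epha7 had 1 higher site (log2 change 0.94). At Epha3 a site inside the gene fell (-1.05) and 1 outside it rose (1.40). The B-class receptors leaned lower, with 2 of 7 sites higher. Both sites of Ephb2 fell inside the gene (-0.82 and -0.73), the single Ephb3 site fell (-0.77), and Ephb1 had 2 of each. Its smallest p was at chr9:102262048-102262588, which went from 8.87 to 8.25 (authors' FDR 0.00124), and its strongest gain at chr9:102300685-102300894, from 3.31 to 5.13 (FDR 0.00515). Epha5, Epha8 and Ephb4 had no listed site. Over the family, 17 of 31 sites were higher, and without Epha2 7 of 20.

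Sequence upstream of annotated starts was taken from RefSeq (GRCm38.p6), which held 47 windows for 38 of the 46 genes. These starts can differ from the outer end of the gene body, from which distances were counted. Some windows, such as those of Robo1 and Sema3a, lay inside the gene body, and the Epha1 window reached into it. The 250 bases before each annotated start were searched on both strands for motifs of factors that act under ERK. These were ETS (CCGGAAGT and GGAAGTG, which share bases where both match), AP-1 (TGANTCA), CRE (TGACGTCA), EGR (GCGTGGGCG and GCGGGGGCG) and the CArG box of SRF. The Epha1 window was the only 1 of the 47 that a listed guidance site overlapped. It is shown with those of Epha2 and Epha4, the Eph receptors with the most sites and with opposite patterns, whose windows no listed site touched. Capitals mark motif matches.
Epha1, chr6:42373269-42373518, minus strand: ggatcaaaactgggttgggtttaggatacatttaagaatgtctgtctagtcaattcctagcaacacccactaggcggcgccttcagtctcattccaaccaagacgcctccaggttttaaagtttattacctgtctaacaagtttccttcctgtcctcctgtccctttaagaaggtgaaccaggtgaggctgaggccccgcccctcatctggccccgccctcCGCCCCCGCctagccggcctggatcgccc
Epha2, chr4:141300971-141301220, plus strand: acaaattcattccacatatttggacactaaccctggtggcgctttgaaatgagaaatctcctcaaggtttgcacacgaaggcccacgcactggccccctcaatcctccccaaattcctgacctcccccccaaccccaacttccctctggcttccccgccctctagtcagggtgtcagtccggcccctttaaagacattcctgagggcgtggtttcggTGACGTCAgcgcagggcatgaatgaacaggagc
Epha4, chr1:77515089-77515338, minus strand: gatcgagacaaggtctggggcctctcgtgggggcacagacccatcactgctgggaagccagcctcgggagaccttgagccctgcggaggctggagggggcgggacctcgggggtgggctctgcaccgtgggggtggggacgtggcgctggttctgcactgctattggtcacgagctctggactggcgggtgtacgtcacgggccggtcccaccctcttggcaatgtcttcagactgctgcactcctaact

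The Epha1 window held the EGR motif GCGGGGGCG, in reverse, which 2.57% of all 32851 windows in that table and 5 of the 47 guidance windows held (also those of Epha8, Plxnb2, Sema5a and Slit2). The Epha2 window held the CRE motif, found in 1.55% of all windows and in no other guidance window. The Epha4 window held none of the 7 motifs. The ETS motifs were in 0 and 1 of the 47 windows (2.88% and 8.55% of all windows), the AP-1 motif in 1 (6.75%), the other EGR motif in 2 (0.536%) and the CArG box in 2 (1.47%). The median share of G and C bases over all windows was 52.4%. In the windows of Epha1, Epha8, Plxnb2, Sema5a and Slit2 with GCGGGGGCG it was 54.4, 84.0, 69.2, 72.0 and 69.6%. Windows were not matched for this share, and its part in the motif counts was not tested. A match describes letters in a window and not a bound site.

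The ephrins had fewer sites than their receptors. Ephrins-A are anchored to the membrane by a lipid and ephrins-B span it. Of the 8 ephrin genes 4 had a listed site, with 2 sites higher and 4 lower, all outside the genes. Efnb2, an ephrin of arteries and of the early embryo, had both sites lower, at 5138 and 56296 bp from the gene (log2 changes -1.13 and -1.12). Efnb1 had a lower site on its upstream side, chrX:99113934-99114274, which went from 6.08 to 4.24, a 3.58-fold loss (authors' FDR 0.00146), and a higher one 92817 bp beyond the gene (1.40). Efna3 had 1 lower site (-0.63). Efna5 had 1 higher site, chr17:62939240-62939456, which went from 4.73 to 6.62, a 3.71-fold gain (authors' FDR 0.000435). Efna1, Efna2, Efna4 and Efnb3 had none. In that order, 4, 6, 4 and 4 listed sites lay within 100 kb of these genes but nearer another gene.

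The Efna5 site lay 58031 bp upstream of Efna5, at the start of the non-coding gene Gm34179. Another site, near Plxna1, covered the start of the non-coding gene 4930512J16Rik. For these sites the RefSeq table holds part of the listed DNA, shown here because 1 gained and the other lost accessibility. No motif searched was found in either stretch, so neither has capitals.
Efna5 site (higher), chr17:62939364-62939456, minus strand: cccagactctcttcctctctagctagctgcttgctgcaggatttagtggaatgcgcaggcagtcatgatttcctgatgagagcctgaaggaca
Plxna1 site (lower), chr6:89285726-89285975, minus strand: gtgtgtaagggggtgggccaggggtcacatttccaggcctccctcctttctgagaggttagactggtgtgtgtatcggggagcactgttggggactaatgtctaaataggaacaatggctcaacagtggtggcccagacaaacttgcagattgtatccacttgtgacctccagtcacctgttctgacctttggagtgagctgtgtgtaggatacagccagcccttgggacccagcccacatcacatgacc

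Plexin genes of the A class lost accessibility at 10 of their 11 listed sites. These receptors pair with neuropilins for class 3 semaphorins and bind class 6 semaphorins directly. The lower sites near Plxna1, Plxna2 and Plxna4 had a median change of -0.94 and a range of -0.46 to -1.18. All 4 Plxna2 sites were lower, led by chr1:194746272-194747383 inside the gene, which went from 9.08 to 8.25 (authors' FDR 3.63e-05). All 3 Plxna4 sites lay inside the gene and were lower, with the smallest p at chr6:32226652-32227116, from 7.09 to 6.08 (FDR 0.00187). Plxna1 had 3 lower sites and 1 higher, all outside the gene. The site that covers the start of 4930512J16Rik had its smallest p and went from 9.32 to 8.39 (authors' FDR 0.000555). The higher Plxna1 site had its centre 1468 bp from that of this lower one and changed by only 0.50.

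The remaining plexin and neuropilin genes leaned higher. Plxnc1, whose product is the receptor for the semaphorin Sema7a, had the second strongest gain of all guidance sites: chr10:94907222-94907533, inside the gene, went from 3.67 to 6.39, a 6.59-fold gain from a low level (authors' FDR 1.39e-05). Of the other Plxnc1 sites, 1 outside the gene rose by 1.49 and 1 inside it fell by 0.66 on the log2 scale. Plxnd1, the receptor for Sema3e in blood vessels, had 1 site inside the gene, which went from 5.30 to 6.65. Nrp1, a co-receptor for class 3 semaphorins and for VEGF, had 2 higher sites upstream of the gene (0.59 and 1.46). Plxnb1 and Plxnb2 had no listed site. In all, 6 of 17 plexin and neuropilin sites were higher, without Nrp2, which is counted in a further list below.

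Semaphorin genes were divided by class. Among the 46 genes, Sema5b, a transmembrane semaphorin gene, was the only one with 3 or more sites that were all higher. Of the further receptors and ligands counted below, Nrp2 (25 sites) and Sema4b (3 sites) also had only higher sites. The 4 Sema5b sites lay inside the gene, where levels went from 6.13 to 7.63, from 7.94 to 8.73, from 5.30 to 8.10 and from 7.84 to 9.30. The third one, chr16:35622771-35623296, was the strongest gain of all guidance sites, at 6.96-fold (authors' FDR 0.00293), while the first, chr16:35545780-35545985, had the smallest p (FDR 6.93e-06). The last 2 were 1195 bp apart, centre to centre. Sema5a, of the same class, had a higher site at chr15:32333332-32333805, from 4.81 to 6.62 (log2 change 1.81, FDR 0.00146), and a lower one (-1.14).

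Among the secreted class 3 genes, 4 of 6 sites were higher. Sema3e, a ligand of Plxnd1, had the smallest p of all semaphorin sites at chr5:13974517-13975042, 50497 bp upstream of the gene, which went from 8.04 to 9.98, a 3.84-fold gain (authors' FDR 1.08e-09). Another site, inside Sema3e, rose by 1.32, and 1 between these fell by 0.80 on the log2 scale. Sema3d and Sema3f had 1 higher site each (1.07 and 1.30), and Sema3a, which repels axons through Nrp1 and A-class plexins, had 1 lower site (-0.82). Sema3c had none. Outside this class, Sema4d had no listed site either.

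The class 6 genes, whose products bind A-class plexins, leaned lower, with 4 of 12 sites higher. Sema6d had 5 lower and 3 higher sites over a gene of 578 kb. The strongest loss of all guidance sites was here: chr2:124294889-124295640 went from 8.45 to 6.52, a 3.81-fold loss (authors' FDR 1.95e-05). The Sema6d site with the smallest p, chr2:124234638-124236068, went from 9.20 to 8.27 (FDR 3.07e-07), and a weak one, chr2:124460727-124460998, from 5.57 to 4.20 (FDR 0.00984). Sema6a had 3 lower sites, by -0.84 to -0.86, and 1 higher (1.09). Its smallest p was at chr18:47364354-47364571, which went from 7.87 to 7.02 (authors' FDR 0.000341).

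Slit and Robo genes lost accessibility at most sites. Slit3, a secreted Robo ligand gene of 587 kb, had as many sites as Epha2 with the opposite balance, 9 lower and 2 higher. By number of lower sites it ranked 10th among 7913 genes with a site, in a tie of 9. The losses were narrow in range, from -0.69 to -1.09, and included broad sites with high control levels such as chr11:35415976-35417391, which went from 9.91 to 9.0 (authors' FDR 1.55e-06), and chr11:35417764-35419709, from 10.57 to 9.83 (FDR 0.00418). The 2 higher Slit3 sites were narrow and had low control levels, 3.08 and 3.52 in log2 normalized reads. The first, chr11:35296351-35296552, went to 5.16, a 4.23-fold gain from 8.46 normalized reads (authors' FDR 0.00381). Its centre was 1134 bp from that of a site that fell by 0.69 on the log2 scale. Slit1 had 1 higher site (1.46), and Slit2 none.

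Robo2, a Slit receptor gene of 1555 kb, had 6 lower and 2 higher sites. Its smallest p was at a narrow site beyond the gene's end, chr16:73858790-73859056, which went from 7.49 to 6.14, a 2.55-fold loss (authors' FDR 4.3e-09). Only 2567 bp away, chr16:73861371-73861608 went the other way, from 3.94 to 6.12 (authors' FDR 0.000539). The weak sites chr16:74427171-74427323 and chr16:74134477-74134676 were among the strongest losses, going from 5.45 to 4.22 (FDR 0.00969) and from 5.93 to 4.72 (FDR 0.000398). Robo1 had 2 sites of each direction, all inside the gene. Its leading site, chr16:72680969-72681318, went from 4.54 to 6.81, a 4.82-fold gain (authors' FDR 5e-06), whereas the 2 lower Robo1 sites were highly accessible in controls (9.77 and 9.12) and fell by 0.68 and 0.64 on the log2 scale.

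Netrin receptor genes were lower at 10 of 13 sites. Dcc, the receptor for attraction to netrin, had 3 sites inside its 1098 kb body, and all fell. The strongest, chr18:71813664-71814025, went from 7.69 to 6.21, a 2.79-fold loss (authors' FDR 3.34e-05), and the others changed by -0.95 and -0.86. Unc5c, a receptor for repulsion, had 3 lower sites and 1 higher, led by chr3:141595041-141595553, from 8.90 to 7.77 (FDR 1.03e-05). Unc5b, a netrin receptor gene also active in blood vessels, had 4 lower and 2 higher sites. Its 3 lower sites inside the gene were small losses, by -0.56 to -0.58, while a site 69503 bp upstream, chr10:60900653-60901515, went from 5.77 to 8.06, a 4.89-fold gain (authors' FDR 1.13e-08). Ntn1, the netrin gene, had 1 site of each direction inside the gene. That at chr11:68268467-68268672 went from 5.58 to 4.28 (authors' FDR 0.00252), and the other from 4.75 to 6.05.

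**Figure D3:**
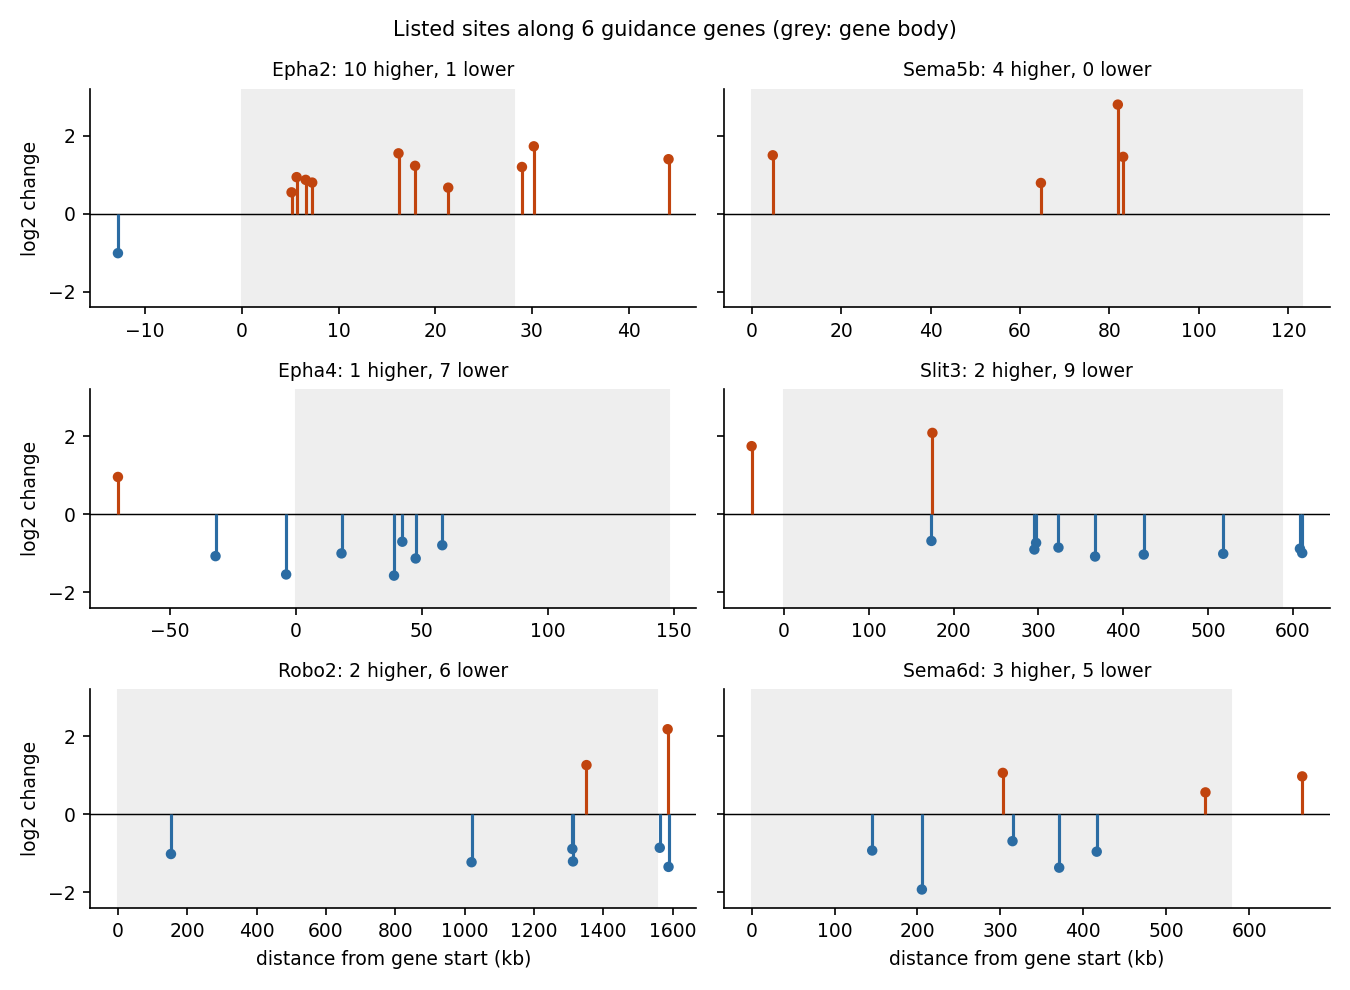
Log2 change at each listed site along 6 guidance genes, against the distance from the gene's start in kb, in the direction of transcription, with the gene body in grey. Epha2 and Sema5b carry mostly gains (red), Epha4 and Slit3 mostly losses (blue), and Robo2 and Sema6d both.

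Receptors and ligands had similar shares of higher sites. Of 73 receptor sites, 30 were higher (41.1%, exact interval 29.7 to 53.2%), and of 44 ligand sites, 19 were higher (43.2%, 28.3 to 59.0%). Each share lay inside the interval of the other, which does not show that the roles behave alike. Each role had a gene of 11 sites that weighed on its share. Without Epha2 the receptors had 20 of 62 sites higher (32.3%), and without Slit3 the ligands had 17 of 33 (51.5%). Counting for each gene its site of smallest p alone, 8 of 19 receptors and 8 of 15 ligands had a higher site. The median gain was 1.25 for receptors and 1.40 for ligands (log2), and the median loss -0.89 and -0.93. The difference between roles was not tested.

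By system, receptors were set beside their own ligands. Eph receptors had 17 of 31 sites higher and ephrins 2 of 6. Plexins and neuropilin had 6 of 17 and semaphorins 13 of 24. The neuropilin gene Nrp2 is not in this count. It belongs to a further list below and had 25 sites, all higher. Robo receptors had 4 of 12 and Slits 3 of 12. Netrin receptors had 3 of 13 and netrin 1 of 2. Only Eph receptors and semaphorins had more higher than lower sites. For Eph receptors this rested on Epha2, and for semaphorins on Sema5b, whose 4 sites were all higher. Within 50 kb of the genes, no family had more higher than lower sites.

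**Figure D4:**
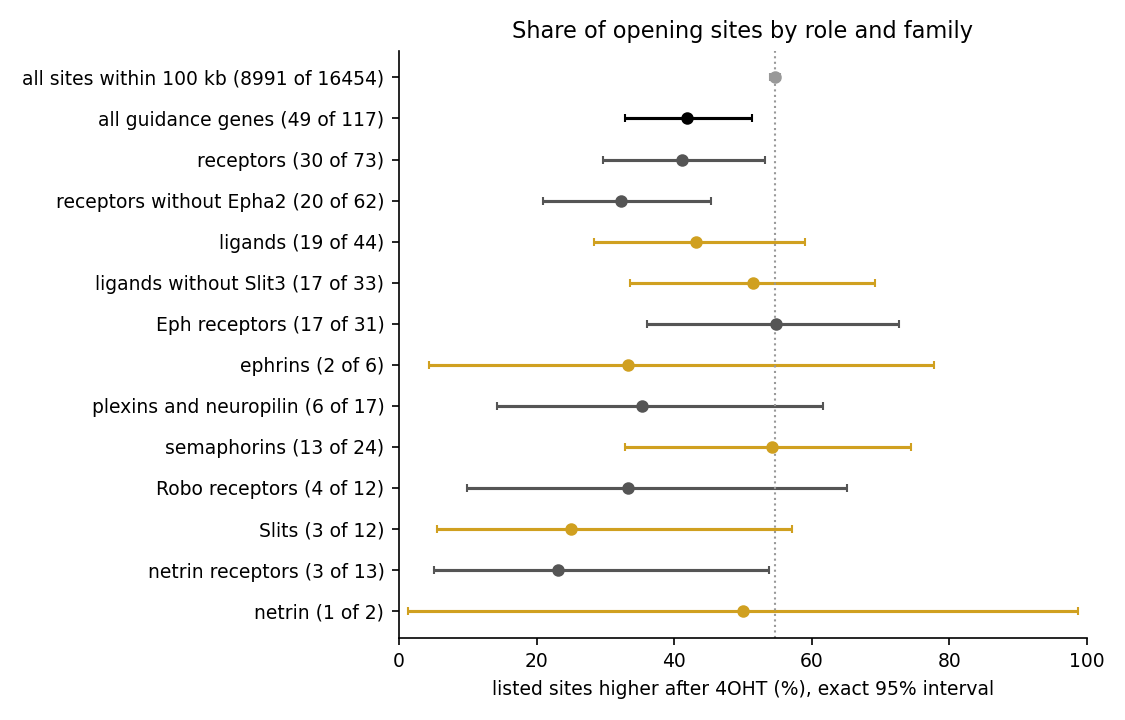
Share of listed sites higher after 4OHT, in percent with exact 95% intervals, for the guidance genes, by role and by family, with counts in brackets. The dotted line marks the 54.6% of all sites within 100 kb. Intervals of receptors and ligands overlap over most of their length.

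Spacing, level, width and position were set beside those of all sites within 100 kb. Neighbouring sites of the same guidance gene moved in the same direction in 53 of 83 pairs (63.9%), against 64.4% of 8541 pairs over all genes. Guidance sites that rose had a median control level of 6.19, against 7.83 at those that fell. The control level is part of the change that sorted these sites, so a gap of this direction is partly built in. After 4OHT the medians were 7.68 and 7.025, and the medians of the mean level were 7.40 and 7.355. For all sites within 100 kb the control levels were 5.51 and 7.88, and the mean levels 6.72 and 7.34. The median width was 474 bp at higher and 536 bp at lower guidance sites, against 412 and 554 bp. Of the guidance sites, 65.0% lay inside the gene, against 57.3% of all sites within 100 kb. Within each class of gene length the guidance share was the lower one. It was 73.3% against 75.4% at genes over 100 kb, and 41.9% against 45.7% at genes up to 100 kb. Exons and introns were not told apart. Inside the genes 28 of 76 guidance sites were higher (36.8%), and outside them 21 of 41 (51.2%), whereas for all sites these shares were 58.4% and 49.6%. The order was thus the reverse of that over all sites. The exact interval of the inside share was 26.1 to 48.7%. It covers counting error only, and the 76 sites lay in 25 genes, so it cannot decide whether the share differs from 58.4%. The difference between inside and outside was not tested. The centre lay within 1 kb of a gene end at 2 guidance sites (1.71%), those at the start of Epha1 and past the end of Epha2. This share was 4.69% over all sites within 100 kb. At genes up to 100 kb it was 6.45% for guidance sites and 6.88% over all sites. At genes over 100 kb it was 0% for guidance sites and 1.26% over all sites.

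The share of higher sites was also set beside the level of the site. At mean log2 levels below 6, gains made up 9 of 19 guidance sites (47.4%, exact interval 24.4 to 71.1%) and 68.8% of all sites. At levels of 6 to 8 it was 24 of 55 (43.6%, against 52.0%), and at 8 and above 16 of 43 (37.2%, against 47.0%). Guidance sites had a median mean level of 7.36, and all sites within 100 kb 7.02. The guidance share was thus below that of all sites in each of the 3 classes, and its interval held the share of all sites in each. The part of gene length in this was not tested. Sites of genes over 100 kb were higher in 51.1% of cases overall and in 36.0% for guidance genes. At shorter genes the shares were 56.9% overall and 58.1% for guidance genes (18 of 31 sites), or 8 of 20 without Epha2.

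**Figure D5:**
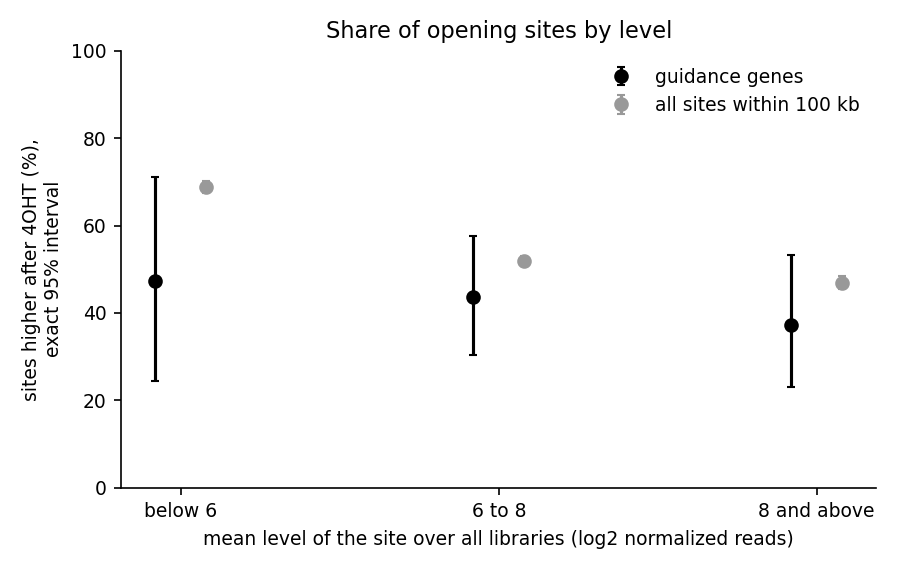
Share of sites higher after 4OHT, in percent with exact 95% intervals, by mean level of the site in log2 normalized reads, for guidance genes (black) and all sites within 100 kb of a protein-coding gene (grey). The guidance share goes from 47.4% to 37.2% over the classes and that of all sites from 68.8% to 47.0%.

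Further genes of the same systems, in 3 lists, were counted in the same way, to be read against the 36.1% of all genes with a site and the 54.6% of all sites that were higher. Gene length was not compared for these lists. Of 16 further receptor genes 10 had a site, with 32 sites higher and 7 lower (82.1% higher). Nrp2, a neuropilin gene, held 25 of the higher ones and no lower one, with a median change of 1.13 and a leading site at chr1:62767116-62768346 that went from 10.59 to 11.61 (authors' FDR 6.02e-12). Without Nrp2 the list had 7 higher and 7 lower. Unc5d had 1 higher and 2 lower sites, Epha6 2 lower, and the netrin and RGM receptor gene Neo1 and Unc5a 2 higher each. Of 18 further ligand genes 9 had a site, 12 sites higher and 10 lower, a share of 54.5% that is at the background. Rgma, a repulsive guidance gene, had 2 higher and 4 lower, Sema4b 3 higher, and Ntn4 and Sema4f 2 higher and 1 lower each.

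Of 30 genes for intracellular effectors, 21 had a site, with 38 sites higher and 34 lower, a share of 52.8% that is close to the background. Dock1, an activator of the GTPase Rac, had 6 of 7 sites lower, and Srgap2, whose product binds Robo receptors and turns off Rac, had 6 of 7 higher. Fyn, a Src family kinase gene, had 4 of 6 higher, and Mical3 3 of 6.

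The distance limit kept 117 sites and left 40 whose nearest gene was a guidance gene farther away. Just inside the limit lay sites of Efnb1 at 92.8 kb (1.40) and Ephb1 at 99.4 kb (1.59). Just outside lay sites of Plxna2 at 100.7 kb (-0.89), Unc5b at 100.7 kb (1.35) and Plxna1 at 101.4 kb (-1.10), as log2 changes. The nearest gene is a convention for naming sites and need not be the gene that a site acts on.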

How the data were processed

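ATAC-seq libraries were grouped by hours of 4OHT, per the labels. Per the submitters' processing notes, the build was mm10 and MACS2, Bowtie2 and bedtools were used; roles and versions are not recorded there. How the authors tested sites, filtered reads and duplicates or shifted Tn5 cuts is not stated in the sources used here, and a missing shift would move site edges by a few bases. The authors' deposited table holds levels, a fold and site width, per the file headers. That the levels and the fold are log2 values was read from the deposited numbers, since no header states it. The table's p-value and FDR columns are the authors' deposited values and were not refitted. The change used is the 4OHT level minus the control level and differs from the authors' fold, sign turned, by at most 0.01.

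Gene bodies came from RefSeq (GRCm38.p6, 21900 protein-coding genes). Where a centre lay inside several genes, the gene with the nearest middle was taken. Strand came from RefSeq promoter windows, and genes without one have no distance from the start. The start used for distances was the outer end of the gene body on that strand. The nearest-gene step was tested on made-up sites at known offsets from isolated genes and gave the right gene at 5045 of 5045. Made-up sites between closely spaced genes were not part of this check. Shares have exact Clopper-Pearson intervals (95%). No list was tested. The genes, lists and alternatives were chosen with earlier results of these data known. Named are all Epha2 sites, the site with the smallest p of each guidance gene with 3 or more sites, the 10 largest gains and losses, sites within 1 kb of a gene end, and in each further list the 3 genes with the most sites, ties included. Other sites named were chosen after their values were seen. Columns of other samples numbered 0. Tables were handled in pandas 2.3.3 and numpy 2.4.6 under Python 3.11.15, with intervals from scipy 1.17.1 and figures from matplotlib 3.10.9.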

Additional observations from a re-analysis of the deposited data

How the results depend on the processing

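The share of higher guidance sites was 41.9% and stayed between 36.8 and 50% under the alternatives run, except that it was 54.0% with log2 changes of at least 1. The ligand share was 59.3% with such changes, and that of the 3 further lists 75.6%, against 61.7% with all sites and 52.8% without Nrp2. Over all sites within 100 kb, such changes were 6861 gains and 3057 losses, so 54.6% is not the background for shares at this cut-off. The number of families with more higher than lower sites, 2 of 8, was 0 within 50 kb and inside gene bodies alone, 1 within 10 kb, with the nearest gene of any biotype and without Epha2, and 3 without Slit3. The share of higher Epha2 sites, 90.9%, was 100% within 10 kb, inside the gene, with any biotype and with 1 site per gene. The share of sites inside genes was 88.4% within 10 kb, 78.5% with any biotype and 53.4% by the nearest gene end. With only sites within 10 kb of the gene body kept, neighbours moved alike in 74.1% of pairs (43 of 58). Distance limits and gene sets change which sites enter, and other causes were not tested. No paired analysis was possible because values per library were not used here, and for the same reason no replicate was left out. Depth per library is unknown, so precision rests on the authors' FDR.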
